A study of Mus musculus with 15 samples.

Results

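The genes of the interleukin 1 family, its receptors and its processing machinery were examined for 3 histone marks during the conversion of mouse pre-B cells into macrophage-like cells. The 9 genes were taken by name from a fixed list (Il1a, Il1b, Il1rn, Il18, Il1r1, Il1r2, Il1rap, Casp1 and Nlrp3) out of 22350 protein-coding genes of chromosomes 1 to 19 and X, and all 9 were found in the annotation. The cells were C10 cells, a line derived from the HAFTL pre-B line that carries C/EBPα fused to the hormone-binding part of the estrogen receptor and tagged with GFP, so that β-estradiol moves the factor into the nucleus. Every library came from this single line. Per the labels, the inducer was 100 nM β-estradiol, the cytokines IL-3 and CSF-1 were each added at 10 nM, and control cells received 0.1% ethanol as solvent; the labels do not state whether the 0 h cells received the cytokines. The study's methods give the inducer in micromolar rather than nanomolar units, and which concentration applied was not resolved. Chromatin immunoprecipitation followed by sequencing (ChIP-seq) for H3K4Me1, H3K27Ac and H3K27Me3 at 0, 3, 12, 24 and 48 hr post-induction (hpi) gave 15 libraries, with 1 library for each mark and time. There is therefore no replicate error in these data, no test was run, and the intervals given are 95% intervals of the tag count, which cover counting error only.

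Interleukin 1α and interleukin 1β are the founding cytokines of the family and act through a receptor made of Il1r1 and the accessory chain Il1rap. Il1rn encodes the receptor antagonist, and Il1r2 encodes a decoy receptor that binds the cytokine without signalling. Interleukin 1β and interleukin 18 are made as precursors that caspase-1 cleaves inside the inflammasome, a complex assembled by sensors such as Nlrp3, and activated macrophages are a major source of both. H3K4Me1 marks poised and active enhancers, H3K27Ac marks active enhancers and promoters, and H3K27Me3 is placed by Polycomb complexes on silenced genes.

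The libraries held between 10913733 and 31541879 distinct tags and were thinned to the smallest library of each mark. Thinning evens depth but not the share of tags that lies in enriched regions. Scaling H3K27Ac by stretches (bins) never enriched would multiply the 24 and 48 hpi counts by 1.49 and 0.959. Scaling by bins enriched at all 5 times would multiply them by 0.924 and 1.21. Comparisons of 24 with 48 hpi, and maxima at 24 hpi, are therefore stated at the thinned depth only. A tag count below is the number of 36 bp tags whose middle fell in 3 kb centred on a gene's start, or in a neighbouring window of 3 kb. A window was called enriched at 34 or more tags for H3K27Ac, 27 for H3K4Me1 and 34 for H3K27Me3, where the mean over the mappable genome was 18.7, 13.4 and 18.3 tags. A difference was counted when it reached 2-fold on the scale log2(tags + 5). H3K27Ac fell by at least 2-fold at 9 of 9 pre-B marker starts and rose by as much at 9 of 9 macrophage marker starts between 0 and 48 hpi, where 9.4% of all protein-coding starts fell and 5.3% rose by as much. From 12 to 48 hpi 4 of the 9 pre-B markers fell and 2 of the 9 macrophage markers rose by 2-fold (4.73% and 2.36% of all starts). Of 11 markers of T cells, fibroblasts, erythroid cells and neutrophils, 1 was enriched for H3K27Ac at 48 hpi, the neutrophil elastase gene Elane, with 16, 37, 201, 143 and 68 tags over the 5 times. The H3K27Ac libraries of 0 and 3 hpi stood apart at the immunoglobulin heavy chain locus. They held 523 and 438 distinct tags in a segment where the other 13 libraries held 23 together. Whether those 2 libraries came from the same stock of cells as the rest cannot be told from the labels, so the H3K27Ac change from 12 to 48 hpi, which uses neither, is given beside the change from 0 hpi for the GENCODE start of each of the 9 genes, the downstream Il1rn start and each sum of windows.

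The 250 bases upstream of the starts that the results turn on are shown here, read from NCBIM37 (mm9) 5′ to 3′ along each gene. Il1b, the downstream Il1rn start and Nlrp3 are shown because they gained the most H3K27Ac tags, the upstream Il1rn start because it gained fewer, Il1a because it kept H3K27Me3 while gaining H3K4Me1, and Il1rap as a GC-rich start under 2-fold in H3K27Ac. Capitals mark matches, on either strand, to any of 4 motifs. TTGCNNAA stands for the motif bound by C/EBP factors, of which the induced C/EBPα is one. GAGGAAG stands for the motif of the myeloid factor PU.1. TGANTCA stands for the motif of AP-1, the dimer of Fos and Jun proteins. TATAAA stands for the TATA box, which places the start of transcription at many inducible genes.
Il1b, chr2:129196876-129197125, minus strand: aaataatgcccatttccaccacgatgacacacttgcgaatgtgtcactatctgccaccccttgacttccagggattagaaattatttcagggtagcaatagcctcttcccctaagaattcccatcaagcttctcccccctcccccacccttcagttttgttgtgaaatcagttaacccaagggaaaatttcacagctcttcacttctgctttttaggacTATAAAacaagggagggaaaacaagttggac
Il1a, chr2:129135709-129135958, minus strand: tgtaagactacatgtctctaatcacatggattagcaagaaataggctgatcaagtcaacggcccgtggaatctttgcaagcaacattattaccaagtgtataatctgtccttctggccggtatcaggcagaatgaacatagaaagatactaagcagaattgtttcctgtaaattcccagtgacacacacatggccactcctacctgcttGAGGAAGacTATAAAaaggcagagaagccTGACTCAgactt
Il1rn, upstream start, chr2:24192123-24192372, plus strand: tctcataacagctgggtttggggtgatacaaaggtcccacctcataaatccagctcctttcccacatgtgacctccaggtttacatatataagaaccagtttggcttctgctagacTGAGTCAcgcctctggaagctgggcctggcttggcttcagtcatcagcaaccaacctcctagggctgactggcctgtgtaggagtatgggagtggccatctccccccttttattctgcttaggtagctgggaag
Il1rn, downstream start, chr2:24200558-24200807, plus strand: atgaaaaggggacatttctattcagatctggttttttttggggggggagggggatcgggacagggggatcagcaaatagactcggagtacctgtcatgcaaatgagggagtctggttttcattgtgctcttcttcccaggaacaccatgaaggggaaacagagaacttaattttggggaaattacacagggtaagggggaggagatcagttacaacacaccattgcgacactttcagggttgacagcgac
Nlrp3, chr11:59354820-59355069, plus strand: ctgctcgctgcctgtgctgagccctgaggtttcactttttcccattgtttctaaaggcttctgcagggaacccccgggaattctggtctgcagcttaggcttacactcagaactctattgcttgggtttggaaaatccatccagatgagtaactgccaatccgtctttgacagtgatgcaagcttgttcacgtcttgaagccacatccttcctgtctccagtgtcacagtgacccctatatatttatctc
Il1rap, chr16:26581540-26581789, plus strand: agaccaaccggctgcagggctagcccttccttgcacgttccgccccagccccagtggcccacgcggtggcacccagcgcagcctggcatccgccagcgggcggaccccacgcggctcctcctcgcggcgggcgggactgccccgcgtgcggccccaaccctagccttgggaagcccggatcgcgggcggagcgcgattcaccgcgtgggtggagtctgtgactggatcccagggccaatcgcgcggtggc

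The Il1b and Il1a starts each held TATAAA, beginning 31 and 32 bases upstream, a match found in 12.3% of 22345 protein-coding promoters of this length. Il1a also held GAGGAAG beginning 41 bases upstream (10.6% of promoters) and TGACTCA beginning 12 bases upstream (AP-1 letters in 6.01%). The upstream Il1rn start held TGAGTCA beginning 134 bases upstream. The Nlrp3, Il1rap and downstream Il1rn sequences held no match to the 4 motifs. The C/EBP letters, found in 9.17% of promoters, occurred at Il1r1 alone among the 9 GENCODE gene starts. RefSeq starts that lie upstream at Il18 and 1118 bp downstream at Nlrp3 were not searched. Matches did not overlap one another. Il1rap stood apart in base composition, with 74.0% GC and 29 CpG, against 44.4% GC and 2 CpG at Il1b. A match, or the lack of one, describes these letters in this window and was not tested against binding.

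H3K27Ac at the start was at least 2-fold higher at 48 than at 0 hpi in 6 of the 9 genes (Il1a, Il1b, Il1rn, Il18, Casp1 and Nlrp3) and at least 2-fold lower in 1 (Il1r2), where 5.3% and 9.4% of all protein-coding starts passed the same rule. The Il18 call rests on 2 and 11 tags, below the genome mean, and was not met at its upstream RefSeq start (log2 change 0.02). The median log2 change was 1.19 over the 9 genes and -0.14 over all starts. From 12 to 48 hpi 1 of the 9 genes was at least 2-fold higher (Il1a, at 1.03) and 0 were lower, against 2.36% and 4.73% of all starts, and 5 of the 9 were already at least 2-fold higher at 12 than at 0 hpi and 0 lower (4.46% and 3.21% of starts). The start was enriched for H3K27Ac in 4 of the 9 genes at 0 hpi and in 7 at 48 hpi, where 46.3% and 47.1% of all starts were. H3K4Me1 was at least 2-fold higher at 48 hpi in 3 genes (Il1a, Il1b and Il1rn; 3.37% of starts) and lower in 0 (9.57%), and the starts enriched for it went from 5 to 7 of 9 (44.8% and 40.6% of all starts). H3K27Me3 was higher in 0 (1.6%) and lower in 1, Nlrp3 (1.98%), a call that a second random thinning did not repeat, with 3 starts enriched at 0 hpi and 4 at 48 hpi (16.2% and 18.6%). In bulk chromatin, more cells carrying a mark and more of the mark per cell cannot be told apart.

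**Figure D1:**
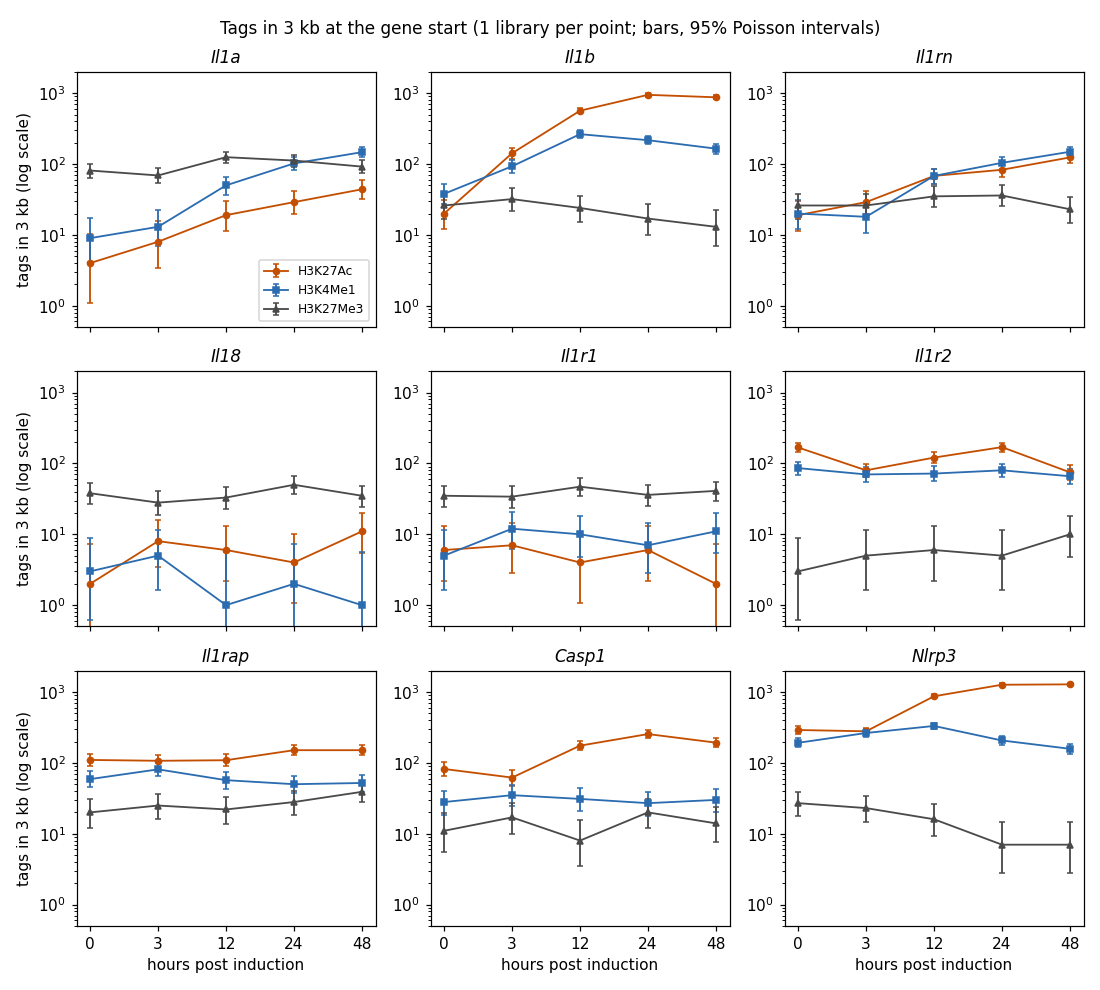
Tags in 3 kb at the start of each of the 9 genes (vertical, log scale) against hours post-induction (horizontal, evenly spaced), with 1 library per point and bars for 95% Poisson intervals (cut off below 0.5 tags). H3K27Ac at Il1b and Nlrp3 ends at 875 and 1283 tags, while at Il1r1 it stays at 7 tags or fewer.

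Il1b, the gene of interleukin 1β, gained H3K27Ac at its start and around it. The start (chr2:129195375-129198374) held 20, 142, 566, 948 and 875 tags in the order of the 5 times. The count was already above its 0 hpi interval (12.2 to 30.9) at 3 hpi, where 119.6 to 167.4 applied. At the thinned depth the intervals at 24 hpi (888.6 to 1010.3) and 48 hpi (818.0 to 935.0) overlapped. The ratio of 48 to 0 hpi was 43.8 (28.2 to 72.0), a log2 change of 5.14 that exceeded those of 99.9% of all starts, and 0.62 of it on the log2 scale lay between 12 and 48 hpi. H3K4Me1 at the same start held 38, 93, 264, 217 and 165 tags, highest at 12 hpi, and its 48 hpi count was 0.625 of the 12 hpi count (0.511 to 0.762). H3K27Me3 held 26, 32, 24, 17 and 13 tags, never enriched and under 2-fold in change.

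The Il1b start was not the only marked part of its locus. The window at -3 kb, just upstream, was enriched for H3K27Ac in pre-B cells with 96 tags and then held 230, 627, 792 and 858. The window at +3 kb, inside the gene, held 10, 104, 212, 372 and 662 tags, the largest log2 rise of any window of Il1b (5.47). The window at +9 kb, past the 3′ end of the gene, held 7, 31, 229, 514 and 387 tags of H3K27Ac and 5, 14, 209, 229 and 183 of H3K4Me1. A window at -9 kb passed through a maximum, with 40, 43, 204, 318 and 122 tags of H3K27Ac. The 6 windows from -3 to +12 kb together held 144 H3K27Ac tags at 0 hpi and 3093 at 48 hpi, a ratio of 21.5 (18.2 to 25.6). From the 1835 tags of 12 hpi the ratio was 1.69 (1.59 to 1.79).

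H3K27Me3 fell by at least 2-fold in 3 of the 21 windows around Il1b, inside and just past the gene. Of windows around all protein-coding starts, 1.93% fell and 1.27% rose by as much. The windows at +3 and +6 kb, inside the gene, and at +9 kb, past its 3′ end, held 48, 53 and 36 tags at 0 hpi, 60, 71 and 57 at 12 hpi and 15, 14 and 7 at 48 hpi. All 3 passed 2-fold also in a second thinning and with all tags scaled by depth. Farther downstream, the window at +15 kb held 21, 19, 54, 46 and 49 tags, a rise that passed 2-fold in the same 3 countings, while rises at +18 kb (3 to 12 tags) and +24 kb (9 to 24 tags) passed it in the first thinning alone. H3K27Ac in the windows at +3, +6 and +9 kb went from 10, 5 and 7 tags at 0 hpi to 104, 29 and 31 at 3 hpi. Of these windows that at +3 kb alone was then enriched. H3K27Me3 in the same windows stood at 44, 58 and 48 tags at 3 hpi. Whether the H3K27Ac libraries of 0 and 3 hpi came from the same stock of cells as those of H3K27Me3 cannot be told. The 7 windows from -30 to -12 kb held 411 H3K27Me3 tags at 0 hpi and 555 at 48 hpi (ratio 1.35, 1.19 to 1.54). All 7 were enriched for it at both times, where 20.3% and 22.9% of all windows were. Over the same 7 windows H3K4Me1 went from 90 to 668 tags. H3K27Ac there went from 42 to 268 tags (ratio 6.38, 4.60 to 9.06), with 3 of the 7 windows enriched at 48 hpi (20.9% of all windows). From the 127 H3K27Ac tags of 12 hpi the ratio was 2.11 (1.70 to 2.63). H3K4Me1 and H3K27Me3 were thus both enriched in all 7 windows at 48 hpi (25.1% and 22.9% of all windows). Whether both lay in the same cells was not tested.

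Il1a, whose start lies on the same strand and chromosome as Il1b, had low H3K27Ac and kept H3K27Me3. Its start (chr2:129134208-129137207) held 4, 8, 19, 29 and 44 tags of H3K27Ac, with enrichment reached at 48 hpi alone. The ratio was 11 (4.0 to 42.2) and the log2 change 2.44, of which 1.03 lay between 12 and 48 hpi. H3K4Me1 held 9, 13, 50, 102 and 147 tags, a log2 change of 3.44 that exceeded 99.9% of all starts, and unlike at Il1b it was highest at 48 hpi. H3K27Me3 held 81, 69, 125, 112 and 92 tags, enriched at all 5 times and above 99.4% of starts at 0 hpi. From 0 to 48 hpi the H3K27Me3 ratio was 1.14 (0.833 to 1.55).

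Around Il1a, 18 of 21 windows gained at least 2-fold H3K27Ac, where 12.4% of windows around all protein-coding starts did. Windows enriched for H3K27Ac went from 3 of the 21 at 0 hpi to 13 at 48 hpi (14.4% and 20.9% of all windows). Some of the rises lay inside the neighbouring gene Ckap2l, as at +21 kb with 14 tags at 0 hpi and 67 at 48 hpi. The largest rise was at -9 kb, in a window with no protein-coding gene over its middle. It held 6, 7, 103, 234 and 216 tags (log2 change 4.33). H3K27Me3 in that window held 67, 79, 104, 66 and 37 tags. The largest fall was at +12 kb, which holds the start of the neighbouring gene Ckap2l, with 392, 301, 359, 255 and 159 tags (log2 change -1.28). The 10 upstream windows together held 75 H3K27Ac tags at 0 hpi and 946 at 48 hpi, a ratio of 12.6 (9.96 to 16.2), and 485 and 588 H3K27Me3 tags. From the 467 H3K27Ac tags of 12 hpi the ratio was 2.03 (1.81 to 2.27). The farthest upstream window of Il1a shares bases with the farthest downstream window of Il1b, so these windows are not wholly separate.

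**Figure D2:**
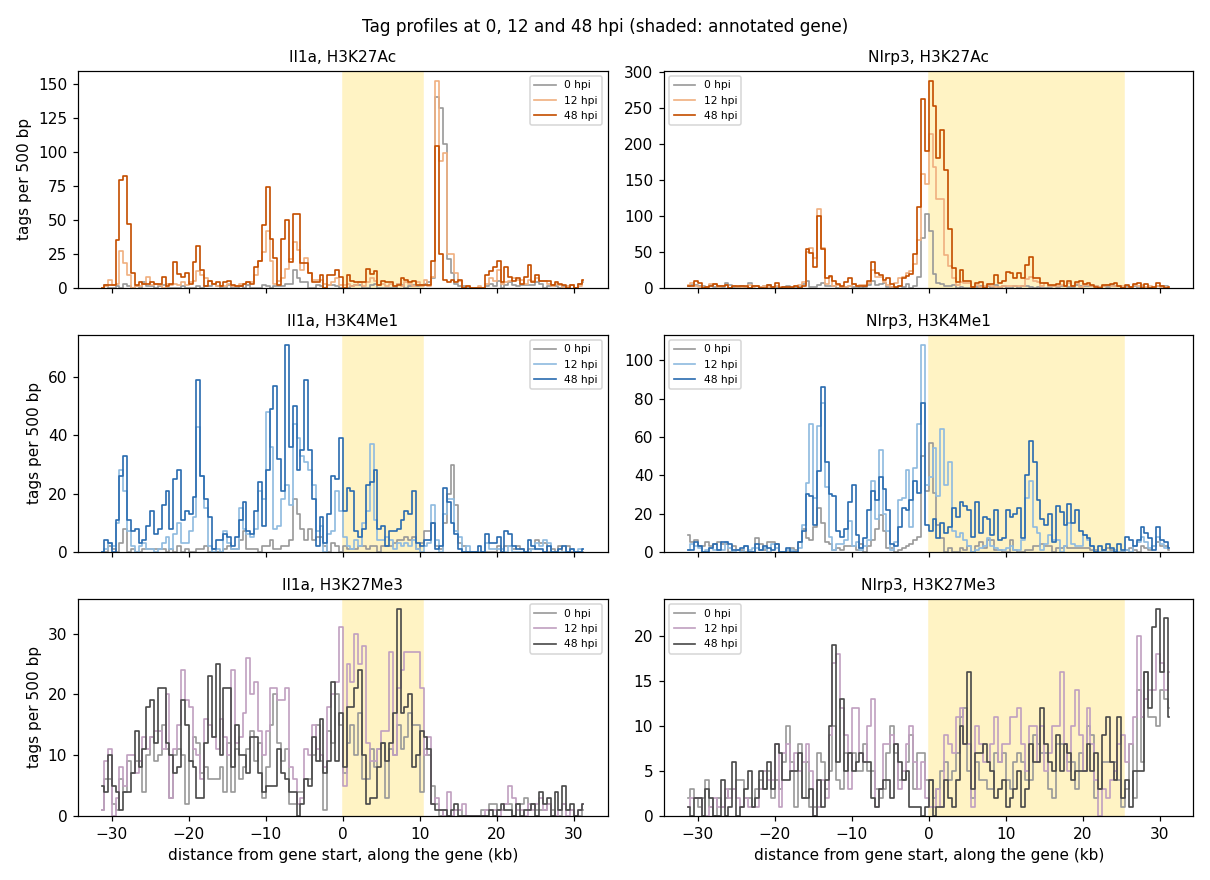
Tags per 500 bp (vertical, linear) against distance from the gene start along the gene (horizontal, kb) at Il1a (left) and Nlrp3 (right) for the 3 marks at 0, 12 and 48 hpi, with the annotated gene shaded. At Il1a H3K27Ac rises upstream and falls at Ckap2l near +12 kb, and at Nlrp3 it rises on both sides of the start.

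Il1rn has a pair of annotated promoters, and they gained H3K27Ac unequally. The upstream start (chr2:24190873-24193872) held 19, 29, 68, 83 and 124 tags, a ratio of 6.53 (4.01 to 11.2). The downstream start, 8435 bp into the gene, held 23, 127, 785, 1127 and 1007 tags, a ratio of 43.8 (29.0 to 69.4) and a log2 change of 5.18. From 12 to 48 hpi the ratio was 1.82 (1.35 to 2.49) at the upstream start and 1.28 (1.17 to 1.41) at the downstream start. At 0 hpi the starts did not differ beyond counting error (downstream over upstream 1.21, 0.631 to 2.35), at 3 hpi the ratio was 4.38 (2.91 to 6.80) and at 24 hpi it was 13.6 (10.9 to 17.2).

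H3K4Me1 took different courses at the Il1rn starts. Upstream it held 20, 18, 68, 104 and 149 tags, highest at 48 hpi. Downstream it held 32, 89, 209, 133 and 116 tags, highest at 12 hpi, with the 48 hpi count at 0.555 of the 12 hpi count (0.438 to 0.700). H3K27Me3 at the downstream start held 30, 28, 21, 7 and 10 tags, a log2 change of -1.22, without being enriched at any time. In the overlapping window at +9 kb it held 21, 22, 15, 6 and 10 tags, a log2 change of -0.79 that was under 2-fold. At the upstream start it held 26, 26, 35, 36 and 23 tags.

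A block 30 to 15 kb upstream of Il1rn, with no protein-coding gene over its window middles, was marked before induction. Its windows at -27 and -24 kb held 387 and 569 H3K27Ac tags at 0 hpi, far above the 19 at the start, and 1028 and 1035 at 48 hpi. The window at -18 kb held 16, 93, 276, 589 and 648 tags, a log2 change of 4.96. The 6 windows of the block summed to 1116 tags at 0 hpi and 4184 at 48 hpi (ratio 3.75, 3.51 to 4.01), and the ratio of 48 to 12 hpi was 1.62 (1.54 to 1.70). The largest rise of the locus in one window was at +9 kb, over the downstream start, with 32, 142, 953, 1344 and 1176 tags. At +6 kb H3K27Me3 held 34, 35, 39, 28 and 9 tags while H3K27Ac rose from 27 to 677.

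**Figure D3:**
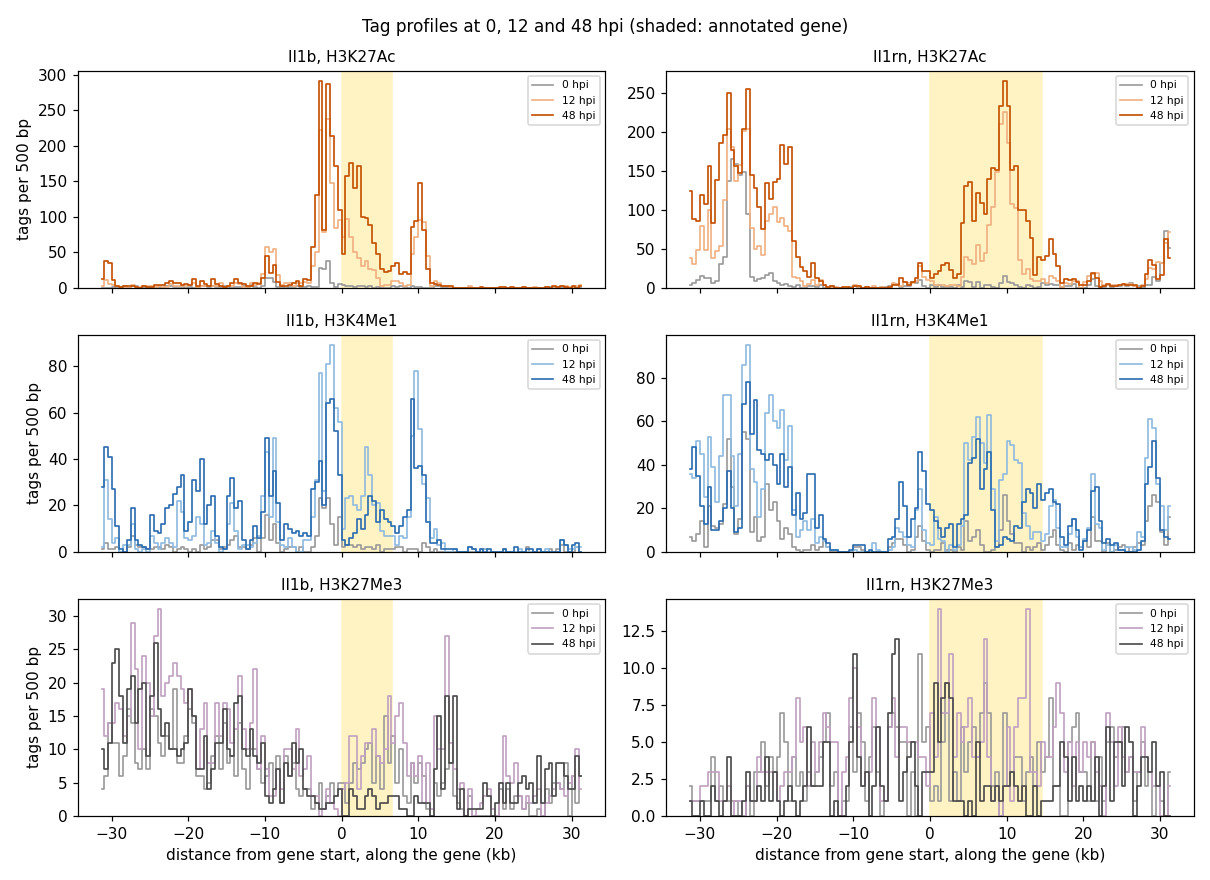
Tags per 500 bp (vertical, linear) against distance from the gene start along the gene (horizontal, kb) at Il1b (left) and Il1rn (right) for the 3 marks at 0, 12 and 48 hpi, with the annotated gene shaded. H3K27Ac at Il1rn forms a block upstream of -15 kb and one inside the gene near +9 kb, with less at the upstream start between them, and H3K27Me3 at Il1b is lower at 48 hpi over the gene body.

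Il18 had almost no active mark at its annotated start. That start (chr9:50381878-50384877) held 2, 8, 6, 4 and 11 tags of H3K27Ac, a ratio of 5.50 with the wide interval of 1.2 to 51.1. No time was enriched, so the 2-fold call rests on counts below the genome mean, and from 12 to 48 hpi the log2 change was 0.54. H3K4Me1 held 3, 5, 1, 2 and 1 tags, and H3K27Me3 held 38, 28, 33, 50 and 35 tags, enriched at 0, 24 and 48 hpi. The GENCODE record used here lacks the 5′ part of the gene. The RefSeq start, placed in NCBIM37 by exact match of its promoter sequence, lies upstream at position 50362805 of chromosome 9, in a window shared with the start of Bco2. There H3K27Ac held 272, 194, 292, 465 and 276 tags, a ratio of 1.01 (0.855 to 1.204), which cannot be divided between the genes. With RefSeq starts, 5 rather than 6 of the 9 genes passed 2-fold. The largest H3K27Ac rise around the GENCODE start was at +6 kb, inside the record, with 3, 6, 18, 36 and 68 tags. A pair of windows past its end, at +15 and +18 kb, held 74 tags together at 0 hpi and 337 at 48 hpi (ratio 4.55, 3.53 to 5.94), and the ratio of 48 to 12 hpi was 1.26 (1.07 to 1.49).

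At the thinned depth, none of the 3 receptor genes gained 2-fold H3K27Ac or H3K4Me1 at its start, a statement that for H3K4Me1 at Il1r1 depends on the setting. Il1r1, the signalling receptor, held 6, 7, 4, 6 and 2 tags of H3K27Ac at its start (chr1:40280425-40283424) and 6, 6, 5, 3 and 1 at a second start 41506 bp downstream. The log2 change from 12 to 48 hpi at the first start was -0.36, from 4 to 2 tags. H3K4Me1 at the first start held 5, 12, 10, 7 and 11 tags, not enriched at any time. Its log2 change of 0.68 reached 2-fold with a pseudocount of 1 or 2 kb windows and with scaling by distant background bins (1.13), and was 0.17 with all tags scaled by depth. H3K27Me3 held 35, 34, 47, 36 and 41 tags, enriched at all 5 times. Of the 21 windows around Il1r1, 0 were enriched for H3K27Ac at any of the 5 times (14.4% and 20.9% of all windows at 0 and 48 hpi). For H3K27Me3, 15 were enriched at 0 hpi and 11 at 48 hpi (20.3% and 22.9% of all windows). The window at +15 kb, inside the gene, was enriched for H3K4Me1 at all 5 times (46, 37, 29, 41 and 29 tags). The window called lower, at -3 kb, went from 7 to 1 tags and lies below the genome mean throughout.

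Il1r2, the decoy receptor, was marked in pre-B cells. Its start (chr1:40140113-40143112) held 168, 80, 121, 170 and 75 tags of H3K27Ac, with no steady direction. The 48 hpi count was 0.446 of the 0 hpi count (0.335 to 0.589), but at 24 hpi the count was as high as at 0 hpi, and from 12 to 48 hpi the log2 change was -0.66. The call was lost with 2 kb windows, with a pseudocount of 20 and with scalings that raise the 48 hpi library (log2 change -0.72 to -1.18 over 13 alternatives). H3K4Me1 held 86, 70, 72, 80 and 66 tags and H3K27Me3 held 3, 5, 6, 5 and 10. Upstream, the windows at -30 and -27 kb fell from 70 to 23 and from 30 to 8 tags of H3K27Ac. From 12 to 48 hpi their log2 changes were -0.68 and -0.94, and the window at -27 kb was not enriched at any time. At +3 kb, inside the gene, H3K27Ac held 207, 82, 186, 274 and 153 tags, a log2 change of -0.42 from 0 to 48 hpi. The RefSeq start, 1325 bp downstream, held 312, 138, 226, 301 and 139 tags (log2 change -1.14).

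Il1rap, the accessory chain, stayed under 2-fold in all 3 marks at its GC-rich start (chr16:26580290-26583289). H3K27Ac held 110, 107, 109, 151 and 151 tags, a ratio of 1.37 (1.07 to 1.77), enriched at all 5 times, and a log2 change of 0.45 from 12 to 48 hpi. H3K4Me1 held 59, 81, 57, 50 and 52 tags. H3K27Me3 held 20, 25, 22, 28 and 39 tags, a ratio of 1.95 (1.11 to 3.53), with enrichment at 48 hpi alone, and passed 2-fold with 2 kb windows (log2 change 1.05). Inside the gene, at +21 kb, H3K27Ac held 11, 12, 11, 28 and 50 tags, enriched at 48 hpi alone.

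**Figure D4:**
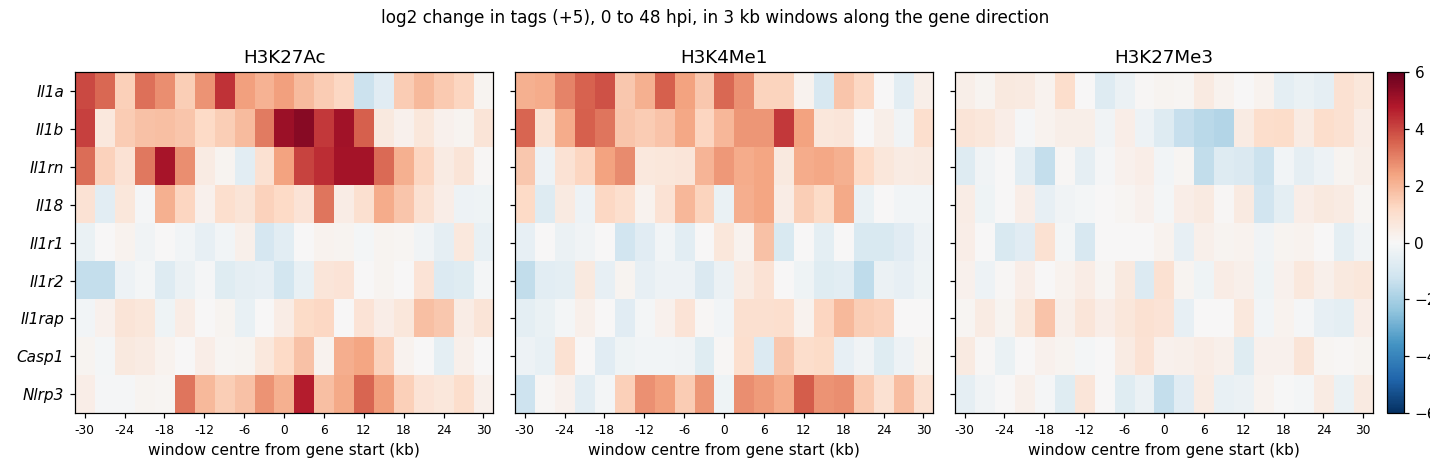
Log2 change in tags (+5) from 0 to 48 hpi, as colour from -6 (blue) to 6 (red), in 21 windows of 3 kb (horizontal, kb from the gene start along the gene) for the 9 genes (rows) and 3 marks (panels). H3K27Ac is at least 2-fold higher in 13 to 18 windows at Il1a, Il1b, Il1rn and Nlrp3 and in 0 at Il1r1 and Il1r2 (12.4% of all windows). Of the 8 H3K27Me3 falls (1.93% of all windows fall), 3 lie inside or just past Il1b and 3 around Il1rn.

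The processing genes Nlrp3 and Casp1 carried H3K27Ac before induction. Nlrp3, the inflammasome sensor, held 291, 279, 871, 1267 and 1283 tags at its start (chr11:59353570-59356569), with overlapping intervals at 0 hpi (258.5 to 326.4) and 3 hpi (247.2 to 313.7). The ratio was 4.41 (3.88 to 5.02), the log2 change 2.12, of which 0.56 lay between 12 and 48 hpi, and the 48 hpi level exceeded those at all but a few starts (percentile 99.96). H3K4Me1 there held 192, 264, 332, 207 and 158 tags, and its 48 hpi count was 0.476 of the 12 hpi count (0.391 to 0.577). H3K27Me3 held 27, 23, 16, 7 and 7 tags, not enriched at any time. Its log2 change was -1.42 in the first thinning, -0.66 in the second and -1.26 with all tags. H3K4Me1 thus had its highest count at 12 hpi at Nlrp3, Il1b and the downstream Il1rn start, and under 3 other scalings the log2 change from 12 to 48 hpi at these starts stayed between -1.13 and -0.35. At Il1a and the upstream Il1rn start it lay between 1.01 and 1.76 under the same scalings.

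Around Nlrp3, H3K27Ac rose on both sides of the start. The window at +3 kb held 15, 30, 223, 443 and 524 tags, a log2 change of 4.73. The 6 windows from +3 to +18 kb held 54 H3K27Ac tags at 0 hpi and 848 at 48 hpi (ratio 15.7, 11.9 to 21.1), and 77 and 713 of H3K4Me1. The H3K27Ac ratio of 48 to 12 hpi was 2.42 (2.14 to 2.75). H3K27Me3 over the same windows was 206 and 195 tags (ratio 0.947, 0.774 to 1.16). Of the 6, 3 were enriched at 0 hpi and 3 at 48 hpi (20.3% and 22.9% of all windows), 2 of them at both times. At -15 kb, over the start of Zkscan17, H3K27Ac held 26, 32, 317, 527 and 286 tags.

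Casp1, which encodes the protease that cleaves the precursors, held 82, 62, 175, 255 and 193 H3K27Ac tags at its start (chr9:5297017-5300016). At the thinned depth the maximum was at 24 hpi. The ratio was 2.35 (1.81 to 3.09), and the log2 change stayed between 1.03 and 1.58 over 13 alternatives. Of that, 0.14 lay between 12 and 48 hpi. H3K4Me1 held 28, 35, 31, 27 and 30 tags and H3K27Me3 held 11, 17, 8, 20 and 14, both without a 2-fold difference. The largest rise near it was at +12 kb, inside the neighbouring caspase gene Casp4, with 6, 19, 13, 28 and 51 tags.

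**Figure D5:**
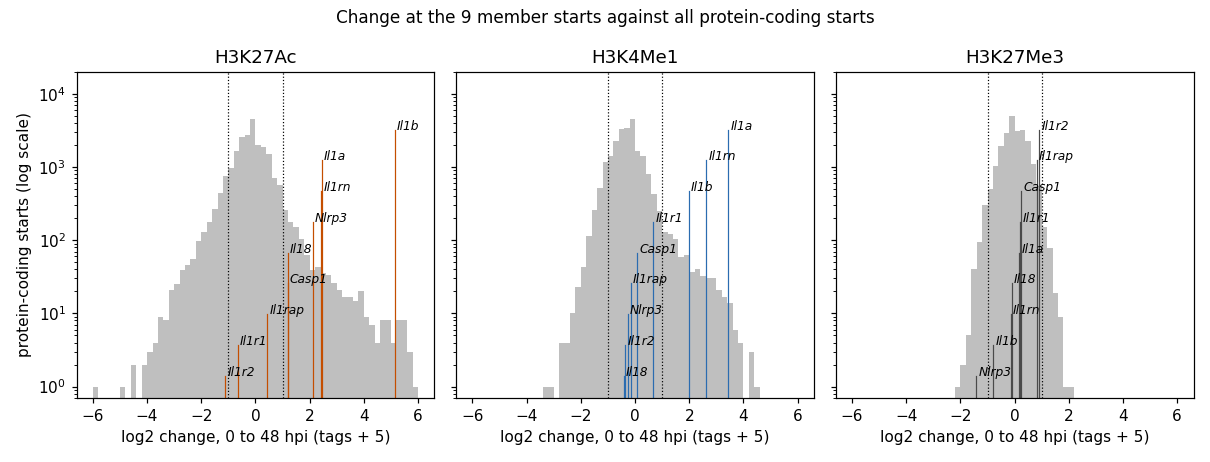
Number of protein-coding starts (vertical, log scale) by log2 change in tags (+5) from 0 to 48 hpi (horizontal), with the 9 genes as vertical lines whose heights only space the names and dotted lines at 2-fold. Il1b lies at 5.14 for H3K27Ac and Il1a at 3.44 for H3K4Me1, in the right tails, and for H3K27Me3 Nlrp3 alone lies past the dotted lines.

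Over all 189 windows, 75 were at least 2-fold higher in H3K27Ac at 48 hpi and 5 were lower, where 12.4% and 5.74% of windows around all protein-coding starts passed. From 12 to 48 hpi 26 were higher and 4 lower, against 5.89% and 3.58%. The windows enriched for H3K27Ac went from 23 to 69 (14.4% and 20.9% of all windows), those for H3K4Me1 from 37 to 90 (22.3% and 25.1%) and those for H3K27Me3 from 62 to 69 (20.3% and 22.9%). For H3K4Me1, 76 were higher and 4 lower (8.29% and 10.2% of all windows), and for H3K27Me3, 5 were higher and 8 lower (1.27% and 1.93%). Several of these H3K27Me3 calls did not pass 2-fold in the second thinning. Besides those at Il1b and the Nlrp3 start given above, they were the rises at Il1a -15 kb (0.91) and Il1rap -18 kb (0.82) and the fall at Il1rn -18 kb (-0.93). The H3K27Ac rises were not spread evenly over the genes. Il1a had 18 of its 21 windows higher in H3K27Ac, Il1b 14, Il1rn 13 and Nlrp3 13, while Il18 had 8, Casp1 5, Il1rap 4, and Il1r1 and Il1r2 had 0. Windows of a gene are neighbours and share broad domains, so they are not independent.

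The order of H3K27Ac levels changed with time, with Il1rn taken at its upstream start and each gene at its GENCODE start. At 0 hpi Nlrp3 (291 tags), Il1r2 (168) and Il1rap (110) stood highest, with intervals apart between the first and the second and between the second and the third, and the interval of Il1rap overlapped that of Casp1 (82). Il1b, Il1rn, Il1r1, Il1a and Il18 followed, each overlapping its neighbour. At 48 hpi Nlrp3 (1283) and Il1b (875) stood apart from the rest and from each other, Casp1, Il1rap and Il1rn overlapped in a chain between 193 and 124 tags, Il1r2 and Il1a overlapped at 75 and 44, and Il18 and Il1r1 were lowest at 11 and 2. Taken at its downstream start (1007 tags at 48 hpi, 945.8 to 1071.2), Il1rn would stand between Nlrp3 and Il1b, with intervals apart from both. RefSeq starts would also change the places of Il18 and Il1r2. At its RefSeq start, in the window shared with Bco2, Il18 held 272 tags at 0 hpi and 276 at 48 hpi. Il1r2 held 312 and 139 at its RefSeq start. Its 0 hpi interval there (278.3 to 348.6) overlaps that of Nlrp3 at the GENCODE start (258.5 to 326.4). All counts are over windows of the same 3 kb length.

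Other genes of the pathway were counted in lists chosen by function, between 0 and 48 hpi, and are read against the 5.3% of all starts that were at least 2-fold higher in H3K27Ac and the 9.4% that were lower. Of 14 further ligands, receptors and decoys, 5 were at least 2-fold higher in H3K27Ac and 0 lower, with a median log2 change of 0.46, but 2 of the 14 were enriched at 48 hpi, where 47.1% of all starts were. From 12 to 48 hpi 2 of the 14 were higher (Il18rap and Il1f5) and 0 lower, against 2.36% and 4.73% of all starts. Il18rap, the accessory chain of the interleukin 18 receptor, held 3, 12, 14, 41 and 35 tags (log2 change 2.32). Il18bp, which encodes the secreted interleukin 18 binding protein, held 67, 53, 92, 177 and 188 (1.42). Il1f9, which encodes interleukin 36γ, held 5, 71, 22, 8 and 31, with its highest count at 3 hpi. Il1f6, which encodes interleukin 36α, held 8, 6, 12, 8 and 28.

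Of 16 further inflammasome genes, 3 were higher and 2 lower, with a median of 0.05, and the share lower lay near that of all starts. Of these 16, 2 were higher from 12 to 48 hpi (Nlrp12 and Casp4) and 0 lower, against 2.36% and 4.73% of all starts. At 0 and 48 hpi 9 and 11 of the 16 were enriched, where 46.3% and 47.1% of all starts were. Nlrp12, a member of the Nlrp family, held 9, 43, 82, 198 and 274 tags (log2 change 4.32), and Casp4, which encodes the caspase of the non-canonical inflammasome, held 9, 41, 34, 51 and 73 (2.48). Aim2, the other gene called higher, held 1, 5, 10, 1 and 11 tags and was not enriched at any time. Txnip fell from 737 to 305 tags and the pannexin channel gene Panx1 from 360 to 157. Of 22 signalling genes below the receptor, 2 were higher and 0 lower, with a median of -0.02, and the share higher lay near that of all starts. Of the 22, 0 were higher or lower from 12 to 48 hpi, where 2.36% of all starts were higher and 4.73% lower. Irak2, a kinase of the receptor complex, held 41, 75, 175, 200 and 144 tags, and Nfkbiz, which encodes the nuclear regulator IκBζ, held 5, 37, 46, 37 and 25. The other 20 signalling genes stayed under 2-fold, and 18 of the 22 were enriched at 0 hpi and 18 at 48 hpi, where 46.3% and 47.1% of all starts were.

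The protein-coding genes whose starts were nearest in all 15 libraries were named for the members past 2-fold in H3K27Ac, by Euclidean distance of log2(tags + 5) outside the member's own neighbourhood. For Il1b they were F5, which encodes coagulation factor V, Ifitm6 and Psen2, at distances of 1.85, 1.98 and 1.98, where the median gene lay at 10.99. H3K27Ac at F5 held 23, 177, 445, 652 and 1116 tags. For Il1a they were Igfbp6, Olfr460 and the chemokine receptor gene Cxcr2. Igfbp6 held 87, 71, 98, 84 and 98 tags of H3K27Me3 beside 10, 21, 65, 108 and 141 of H3K4Me1. For Il1rn they were Syt8, Ccl4 and Gm10277, for Nlrp3 Soat2, Slc11a1 and 4632428N05Rik, for Casp1 Fndc3b, Bet1 and Vwa5a, for Il1r2 Prkaca, Rgag4 and Unc119, and for Il18 the receptor genes Taar8a, Olfr1426 and Olfr706. Each gene was taken at its GENCODE start. For Il1rn this is the upstream start, and for Il18 it is the start of a record that lacks the 5′ part of the gene. Likeness at their other starts was not computed.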

How the data were processed

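ChIP-seq tags for H3K4Me1, H3K27Ac and H3K27Me3 in C10 cells at 5 times were grouped by mark and time from the labels. The authors aligned reads to mm9 with Eland or Bowtie without mismatches and removed identical and non-unique tags; which aligner made which library is not given in the sources used here. The deposited files hold tag positions (chromosome, start and end of 36 bp), not counts or a normalized signal. Those of H3K4Me1 at 0 and 48 hpi still held up to 205 and 135 tags at 1 position. Identical tags were collapsed to 1 per position, libraries were thinned to 10913733 (H3K4Me1), 15216488 (H3K27Ac) and 15338280 tags (H3K27Me3), and tag middles were counted in 3 kb windows at GENCODE vM1 starts on NCBIM37. Log2 changes used a pseudocount of 5. Enriched windows had a Poisson tail under 0.001. Poisson and Clopper-Pearson 95% intervals came from scipy 1.17.1 in Python 3.11.15. The counting was tested on simulated data. RefSeq promoters (GRCm38.p6) served for placing starts. The members and lists were chosen with earlier results of these data known. Every member was named, with its windows of largest H3K27Ac rise and fall past 2-fold. By rule up to 4 genes per pathway list were named, those of largest change. Il1f5 and Panx1 were named beyond that limit, Il1f5 after its values were seen. Depth scalings, pseudocounts, window sizes, starts and thinnings were varied.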

Additional observations from a re-analysis of the deposited data

How the results depend on the processing

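Of 130 alternative values of the 12 counts of genes or windows past 2-fold, 99 stayed within 1.5 times and 31 moved, and of 358 alternative log2 changes at single starts 327 stayed and 31 moved. None of the 7 H3K27Ac, 3 H3K4Me1 and 1 H3K27Me3 changes past 2-fold at the 9 starts turned in sign under these alternatives, but among the changes under 2-fold 0, 5 and 5 did under at least 1. For H3K27Ac at starts, the count of lower genes went from 1 to 0 with scaling by bins enriched at all 5 times, a pseudocount of 20, 2 kb windows, scaling by distant background bins or 12 in place of 0 hpi, and to 2 with a pseudocount of 1; the count of higher genes went from 6 to 1 with 12 in place of 0 hpi. H3K4Me1 lower genes went from 0 to 1 with a pseudocount of 1. H3K27Me3 lower genes went from 1 to 0 with a second thinning, a pseudocount of 20 or the start of most transcripts and to 2 with 6 kb windows, and higher genes from 0 to 1 with a pseudocount of 1, 2 kb windows or distant background bins. H3K27Ac lower windows went from 5 to 2 with bins enriched at all 5 times or a pseudocount of 20, 3 with distant background bins and 14 with a pseudocount of 1, and higher windows from 75 to 26 with 12 in place of 0 hpi. H3K4Me1 lower windows went from 4 to 1 with background bins, distant background bins or a pseudocount of 20 and to 24 with a pseudocount of 1. H3K27Me3 higher windows went from 5 to 9 with background bins, 11 with distant background bins or a pseudocount of 1, and 1 with bins enriched at all 5 times or a pseudocount of 20, and lower windows from 8 to 15 with a pseudocount of 1 and 2 with a pseudocount of 20. The cause of these moves was not tested beyond the setting itself. The scalings shift the 48 against 0 hpi log2 ratio of tags by -0.07 to 0.41 for H3K27Ac, 0.06 to 0.81 for H3K4Me1 and -0.17 to 0.21 for H3K27Me3. The pseudocount is added after scaling, so changes on log2(tags + 5) shift by other amounts at low counts. With distant background bins H3K4Me1 at Il1a went from 3.44 to 4.05. The sign of the H3K4Me1 change depends on the scalings at Nlrp3 (-0.27, or 0.52 with distant background bins), Il1r2 (-0.36, or 0.40) and Il1rap (-0.17, or 0.57). It depends on the window at Il18 (-0.42, or 0.62 with 6 kb windows) and Casp1 (0.08, or -0.06 with 2 kb windows). The distant bins, 12 hpi and RefSeq starts were chosen after seeing the data. No paired analysis was possible because a time of a mark holds a single library. Counts near or below 10 tags, as at Il18 and Il1r1, limit what a ratio can show.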
